A study of Homo sapiens with 6 samples.

Results

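The ZIC and SALL genes encode zinc finger transcription factors of the early embryo, and 8 of them are described here across 6 RNA-seq libraries: ZIC1, ZIC2, ZIC4, ZIC5, SALL1, SALL2, SALL3 and SALL4. They were picked by name from the 53712 gene names of the deposited count table, with the fold changes between the groups already known. Their values between the groups are therefore a description and carry no test. Of the 8, 6 passed the filter on low counts, and ZIC1 and ZIC4 did not. The libraries came from the established cell line H9, which is derived from a human embryo, kept in RSeT medium, made to hold pluripotent cells in a naive-type state. For 48 h, 1 group was treated with 2.5 µM UNC1999, which blocks the methyltransferase subunits EZH2 and EZH1 of Polycomb repressive complex 2, and the other with 2.5 µM UNC2400, a weakly active N-methylated analog, with 3 libraries each. Both groups also had 10 nM DZNep, which blocks S-adenosylhomocysteine hydrolase, and 5 nM TSA, which blocks histone deacetylases, so no group shows the cells without these agents. H9 is a single line, and the labels do not say whether the replicates were separate cultures. The p-values given for other genes thus rest on a spread among libraries that may be technical. The gene lists used below were also chosen with earlier results of these data known. Their counts and medians are therefore a description, and their p-values are no independent test of a list.

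ZIC proteins bind DNA through zinc fingers related to those of the GLI proteins and act at the neural plate, its border and in the neural crest. The 4 ZIC genes described lie in head-to-head pairs, ZIC1 with ZIC4 and ZIC2 with ZIC5. SALL proteins recruit the NuRD corepressor. SALL4 belongs to the pluripotency network, SALL1 is needed for kidney development, and loss of SALL2 is linked to coloboma of the eye.

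Total counts were 33522942 to 34481593 in the UNC1999 libraries and 29699441 to 42345448 in the UNC2400 libraries, and 3 counts, the limit that a count of 0 allows, equal 0.0708 to 0.101 CPM (counts scaled to library size). Such limits and the counting intervals below cover counting error only, since the reads carry no molecular identifiers. UNC1999 replicate 1 stood apart from its group: on the first principal component, with 67.8% of the variance, it had a score of 20.1, against 39.3 and 41.4 for the other UNC1999 libraries and -35.2 to -31.6 for the UNC2400 libraries. Fold changes of the 6 tested genes are therefore also given without it; those of ZIC1 and ZIC4 are ratios of few counts and are given over all libraries. The pluripotency markers POU5F1, NANOG, SOX2, LIN28A and TDGF1 were present in every library, with POU5F1 at 1024 ± 80.8 CPM in UNC1999 and 1393 ± 29.2 CPM in UNC2400 (SD, n = 3 each). Naive markers were uneven, with KLF17 at no more than 0.597 CPM in any library but DPPA5 at 111 CPM or more, and the primed marker SFRP2 was at 122 CPM or more in every library.

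Among the ZIC genes, ZIC2 and ZIC5 were higher in UNC1999, ZIC1 was near the detection limit with more reads in UNC1999, and ZIC4 was at that limit in both groups. ZIC2 and ZIC5 share a locus on chromosome 13 and are read in opposite directions, so the 250 bases before a start of each are shown, with every CG dinucleotide in capitals. CG-rich promoters are a known feature of genes bound by Polycomb complexes. The sequences are from RefSeq on GRCh38.p14, a build other than the hg19 of the counts. ZIC2 lies on the plus strand, at chr13:99981534-99981783, and ZIC5 on the minus strand, at chr13:99971910-99972159, for the ZIC5 start that lies closest to ZIC2.
ZIC2: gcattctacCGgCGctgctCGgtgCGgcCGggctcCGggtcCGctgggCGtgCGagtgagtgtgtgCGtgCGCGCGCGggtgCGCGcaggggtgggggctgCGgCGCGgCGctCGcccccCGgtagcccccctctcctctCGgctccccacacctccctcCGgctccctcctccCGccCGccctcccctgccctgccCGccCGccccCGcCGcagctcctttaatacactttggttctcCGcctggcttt
ZIC5: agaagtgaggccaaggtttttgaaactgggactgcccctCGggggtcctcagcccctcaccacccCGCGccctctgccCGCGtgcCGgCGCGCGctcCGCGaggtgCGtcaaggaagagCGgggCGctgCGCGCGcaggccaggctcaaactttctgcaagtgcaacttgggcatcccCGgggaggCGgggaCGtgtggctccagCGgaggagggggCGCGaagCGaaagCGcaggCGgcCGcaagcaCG

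The ZIC2 stretch holds 31 CG dinucleotides at 75.6% G and C, and the ZIC5 stretch 28 at 70.4%. The median of 35116 RefSeq stretches of the same length was 11 CG dinucleotides and 58.0% G and C. Fewer CG dinucleotides than in ZIC2 were found in 89.1% of them, and fewer than in ZIC5 in 84.1%. The 2 other listed ZIC5 starts had 12 and 21. The motif GGGCGG, searched on both strands as were CCAAT and TATAAA, occurred 4 times before ZIC2, with 2 overlaps among the matches, and is present in 42.6% of all stretches. The ZIC5 stretch shown holds none of the 3 motifs. A match is a description of letters and not a binding site.

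ZIC2, known for its role in forebrain midline formation and as a factor of primed pluripotent cells, had 13.3, 14.2 and 13.3 CPM in UNC1999 replicates 1 to 3, against 5.14, 4.96 and 3.74 CPM in UNC2400 replicates 1 to 3. Every UNC1999 library lay above every UNC2400 library, and UNC2400 replicate 3 was the lowest. The means were 13.6 ± 0.533 CPM in UNC1999 and 4.61 ± 0.758 CPM in UNC2400 (SD, n = 3 each), a fold of 2.94 with a 95% interval of 2.49 to 3.46. On the log2 scale this is 1.55 ± 0.11 (SE), and 1.55 without UNC1999 replicate 1.

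ZIC5, which acts in neural crest formation, had 8.47, 9.35 and 7.37 CPM in UNC1999 replicates 1 to 3, against 4.34, 3.50 and 4.21 CPM in UNC2400 replicates 1 to 3. The groups did not overlap. The log2 fold change was 1.08 ± 0.13 (SE), a fold of 2.11 with a 95% interval of 1.75 to 2.54, and 1.05 without UNC1999 replicate 1. The per-length ratio of ZIC2 to ZIC5 was 2.20, 2.13 and 2.52 in UNC1999 replicates 1 to 3, against 1.66, 1.99 and 1.25 in UNC2400 replicates 1 to 3. ZIC2 thus lay above ZIC5 per length in every library, and by more in each UNC1999 library. In CPM, without exon length, ZIC2 lay below ZIC5 in UNC2400 replicate 3 (3.74 against 4.21). The order in that library therefore rests on the exon lengths, which are approximate.

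ZIC1, a factor of the dorsal neural tube and cerebellum, had 5, 11 and 9 counts in UNC1999 replicates 1 to 3, against 1, 4 and 2 counts in UNC2400 replicates 1 to 3. The groups did not overlap, but the levels were near the detection limit. Its 25 counts in UNC1999 and 7 counts in UNC2400 gave a depth-scaled ratio of 3.47 with an exact counting interval of 1.46 to 9.51. ZIC4, its neighbour on the opposite strand, had 1, 3 and 3 counts in UNC1999 replicates 1 to 3, against 3, 3 and 1 counts in UNC2400 replicates 1 to 3. Its groups overlapped, with 7 counts in each group and a ratio of 0.973 (exact counting interval 0.291 to 3.25). Exons of ZIC1 and ZIC4 overlap on opposite strands, with a longest single overlap of 176 bases. The strand setting of the counting is not given in the sources used here, so reads from overlapping exons cannot be told apart. The antisense gene ZIC4-AS1 had 0 counts in all 6 libraries.

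The 250 bases before ZIC1 (plus strand, chr3:147409115-147409364, GRCh38.p14) are shown to set a ZIC gene near the detection limit beside ZIC2 and ZIC5.
ZIC1: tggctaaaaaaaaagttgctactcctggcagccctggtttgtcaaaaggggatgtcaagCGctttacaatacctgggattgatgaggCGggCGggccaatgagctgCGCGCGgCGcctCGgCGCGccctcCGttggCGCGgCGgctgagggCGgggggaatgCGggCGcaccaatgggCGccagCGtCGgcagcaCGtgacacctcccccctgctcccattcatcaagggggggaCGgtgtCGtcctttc

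This stretch holds 23 CG dinucleotides at 64.4% G and C, more CG than 74.2% of all stretches, with 2 matches each to CCAAT, which 32.0% of all stretches hold, and to GGGCGG. The 4 listed starts of ZIC4 had 16, 2, 7 and 9 CG dinucleotides.

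**Figure D1:**
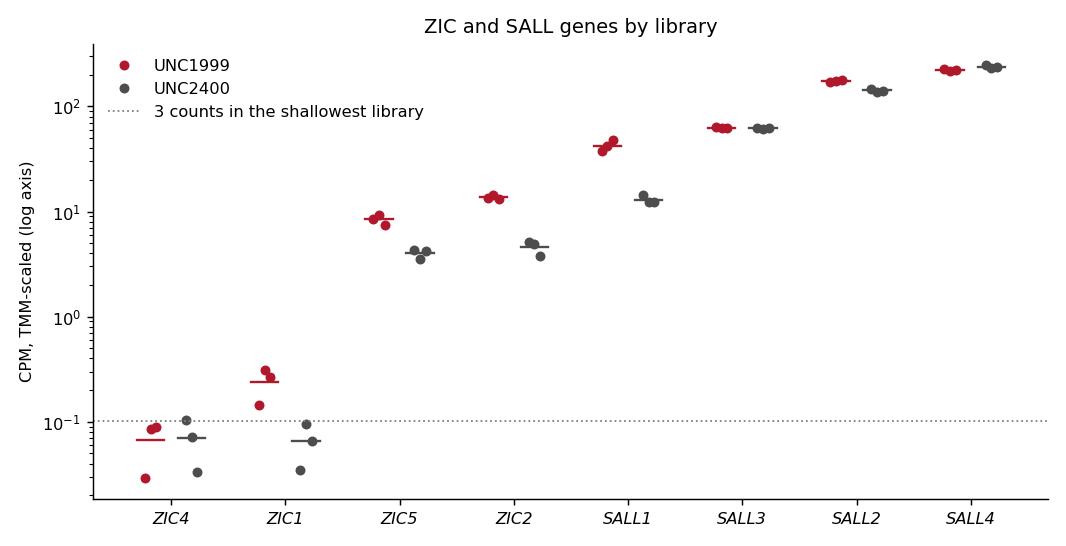
Level (CPM) of the 8 ZIC and SALL genes on a log axis, UNC1999 (red) on the left of UNC2400 (grey) for each gene, with a point for each library, a line at the mean (n = 3 each) and a dotted line at 3 counts in the shallowest library (0.101 CPM). ZIC1, ZIC2, ZIC5, SALL1 and SALL2 have all UNC1999 libraries above all UNC2400 libraries, whereas SALL3 overlaps.

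Among the SALL genes, SALL1 differed most and SALL2 slightly, both higher in UNC1999, whereas SALL3 and SALL4 differed less than SALL2. The threshold named below is an edgeR adjusted p of 0.05 over all tested genes. For the ZIC and SALL genes, picked with their fold changes known, passing it sorts the values and is no test. SALL1, mutated in Townes-Brocks syndrome, had 37.5, 41.7 and 48.1 CPM in UNC1999 replicates 1 to 3, against 14.3, 12.3 and 12.4 CPM in UNC2400 replicates 1 to 3. All UNC1999 libraries lay far above all UNC2400 libraries, and UNC1999 replicate 1 was the lowest of its group. The means were 42.4 ± 5.33 CPM in UNC1999 and 13.0 ± 1.11 CPM in UNC2400 (SD, n = 3 each), a fold of 3.27 with a 95% interval of 2.88 to 3.73. The log2 fold change was 1.71 ± 0.09 (SE), and 1.77 without UNC1999 replicate 1.

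SALL2 had 171, 175 and 177 CPM in UNC1999 replicates 1 to 3, against 147, 138 and 141 CPM in UNC2400 replicates 1 to 3. The groups did not overlap, and the gap was small beside the levels. The log2 fold change was 0.30 ± 0.05 (SE), a fold of 1.23 with a 95% interval of 1.14 to 1.32, and 0.29 on the log2 scale without UNC1999 replicate 1. Its exons overlap those of the opposite-strand gene AL161747.2, with a longest single overlap of 255 bases.

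SALL3, a paralog of SALL1, had 63.8, 61.9 and 61.9 CPM in UNC1999 replicates 1 to 3, against 62.7, 61.3 and 61.8 CPM in UNC2400 replicates 1 to 3. The libraries of both groups lay together. The log2 fold change was 0.01 ± 0.05 (SE), with a 95% interval of -0.09 to 0.12, and its sign was negative without UNC1999 replicate 1 (-0.02).

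SALL4, the family member best known from pluripotent cells, had 227, 218 and 224 CPM in UNC1999 replicates 1 to 3, against 249.6, 229.9 and 238 CPM in UNC2400 replicates 1 to 3. The UNC1999 libraries lay below the UNC2400 libraries by a small margin. The log2 fold change was -0.10 ± 0.05 (SE), with a 95% interval of -0.21 to 0.01. Without UNC1999 replicate 1 it was -0.13, and only then past the threshold, which is a description here and no test. The pseudogenes SALL1P1, SALL4P1, SALL4P2, SALL4P5, SALL4P6 and SALL4P7 had 0 counts in all 6 libraries.

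Past the threshold were 4 of the 6 tested genes, all higher in UNC1999, beside 26.8% of all 17596 tested genes that were higher, 25.9% that were lower and 52.7% that passed in either direction. The groups did not overlap for 5 of the 6 tested genes, 4 higher and 1 lower in UNC1999, beside 60.6% of all tested genes (30.9% higher and 29.7% lower). These counts follow from how the genes were picked and are no test. A larger log2 fold change than that of SALL1 was found in 0.744% of tested genes, than that of ZIC2 in 0.989%, than that of ZIC5 in 3.11% and than that of SALL2 in 24.6%. In the authors' deposited table the log2 fold changes were 1.70 for SALL1, 1.53 for ZIC2, 1.07 for ZIC5, 0.28 for SALL2, -0.0028 for SALL3 and -0.12 for SALL4, and 1.61 for ZIC1.

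**Figure D2:**
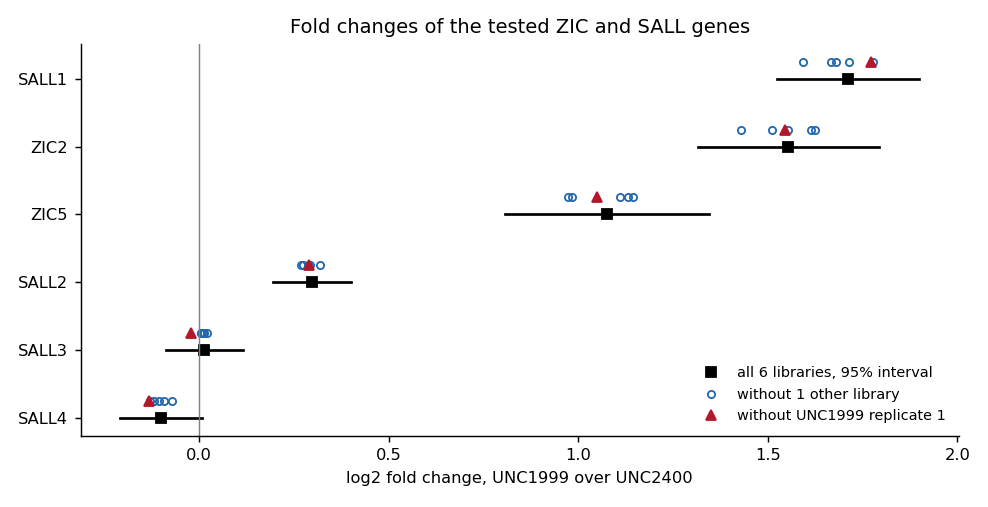
Log2 fold change (UNC1999 over UNC2400) of the tested ZIC and SALL genes with 95% intervals, over all 6 libraries (squares), with triangles for the value without UNC1999 replicate 1 and circles for the values without 1 of the other libraries. SALL1 (1.71), ZIC2 (1.55) and ZIC5 (1.08) lie well above 0, SALL2 (0.30) slightly above, and SALL3 (0.01) and SALL4 (-0.10) near 0.

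The promoters of SALL2 and SALL3 differ in CG content, and the 250 bases before their starts are shown for this contrast (SALL2 on the minus strand, chr14:21537122-21537371; SALL3 on the plus strand, chr18:78979568-78979817; RefSeq, GRCh38.p14). Promoter sequences matched 6 of the 8 genes, and SALL1 and SALL4 are named only.
SALL2: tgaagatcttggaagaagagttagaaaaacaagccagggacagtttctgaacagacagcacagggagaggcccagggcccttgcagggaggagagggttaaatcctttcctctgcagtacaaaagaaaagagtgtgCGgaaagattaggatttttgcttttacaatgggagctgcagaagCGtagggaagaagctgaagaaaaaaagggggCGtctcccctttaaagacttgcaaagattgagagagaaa
SALL3: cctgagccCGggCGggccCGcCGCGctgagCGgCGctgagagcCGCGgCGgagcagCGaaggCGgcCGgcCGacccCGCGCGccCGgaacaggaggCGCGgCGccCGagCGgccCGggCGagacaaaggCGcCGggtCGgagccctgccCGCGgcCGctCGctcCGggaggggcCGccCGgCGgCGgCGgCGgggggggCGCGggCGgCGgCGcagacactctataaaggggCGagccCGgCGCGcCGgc

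SALL3, which had a log2 fold change near 0, has 49 CG dinucleotides at 84.4% G and C, more than 99.8% of all stretches. SALL2 has 3 at 46.0%, and 22.9% of all stretches have fewer. SALL1, with the largest fold change, had no matched sequence, and a link between CG content and the fold changes was not tested. SALL3 holds GGGCGG 3 times and TATAAA 1 time, a motif that 10.7% of all stretches hold, and SALL2 none of the 3 motifs.

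Per kb of joined exon length, SALL4 and SALL2 had the highest levels of the 8 genes, and SALL1, ZIC2 and ZIC5, with the larger fold changes, had lower levels. In CPM per kb, the order in UNC1999 was SALL4 at 38.7 ± 0.762, SALL2 at 32.4 ± 0.520, SALL3 at 8.45 ± 0.151, SALL1 at 7.49 ± 0.941, ZIC2 at 4.11 ± 0.161 and ZIC5 at 1.81 ± 0.214 (SD, n = 3 each). In UNC2400 the order was the same, with SALL4 at 41.4 ± 1.72, SALL2 at 26.4 ± 0.846, SALL3 at 8.37 ± 0.0991, SALL1 at 2.30 ± 0.196, ZIC2 at 1.39 ± 0.229 and ZIC5 at 0.865 ± 0.0978. SALL1 and SALL3 overlapped between libraries in UNC1999 and lay far apart in UNC2400. The other neighbours in the order of these 6 genes did not overlap in either group. Exon lengths were those of GENCODE 29 and join all transcripts, so levels per kb are approximate.

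For the SALL family, SALL4 made up 44.4% ± 0.920 of the summed level in UNC1999 and 52.8% ± 0.276 in UNC2400, and SALL1 8.61% ± 0.963 in UNC1999 and 2.92% ± 0.152 in UNC2400 (SD, n = 3 each). The SALL1 to SALL4 ratio per length was 0.168, 0.195 and 0.219 in UNC1999 replicates 1 to 3, against 0.0583, 0.0546 and 0.0531 in UNC2400 replicates 1 to 3. The summed SALL level was 87.0 ± 1.37 CPM per kb in UNC1999 and 78.4 ± 2.84 in UNC2400.

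**Figure D3:**
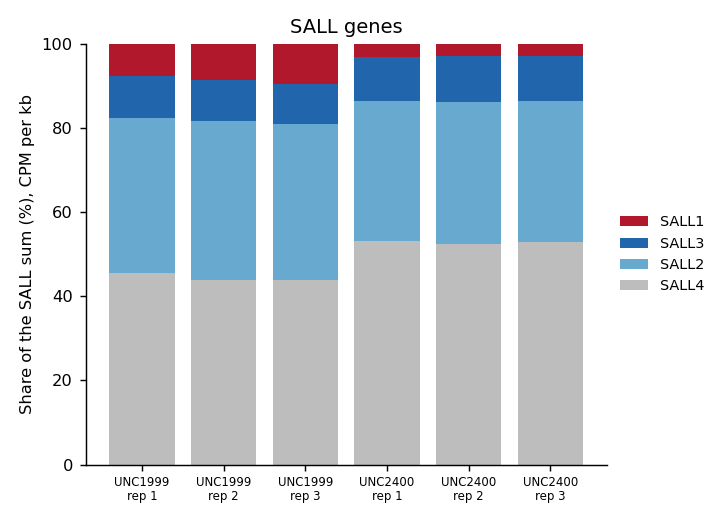
Share (%) of each gene in the summed level (CPM per kb) of the 4 SALL genes, by library, UNC1999 on the left. SALL1 takes a larger share in the UNC1999 libraries (mean 8.61%) than in the UNC2400 libraries (mean 2.92%), and SALL4 a smaller one.

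The GLI genes, related to ZIC by their zinc fingers, went the other way from ZIC2 and ZIC5. Of 4 tested GLI and GLIS genes, 3 fell in UNC1999, the Hedgehog effectors GLI1 (-0.45 ± 0.07), GLI2 (-0.41 ± 0.07) and GLI3 (-0.57 ± 0.09; log2, SE). GLIS2 had a log2 fold change of 0.01 ± 0.08, whose sign changed between scalings. The edgeR adjusted p-values of the GLI genes were 4.58e-05, 0.000225 and 5.44e-05. The median log2 fold change of the list was -0.43, against 0.02 over all tested genes. Counts of this and the later lists stand beside 26.8% of all tested genes that were higher and 25.9% that were lower.

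Among 12 tested genes of the Hedgehog pathway, 3 rose and 1 fell. The receptor gene PTCH1 rose by 0.83 ± 0.08, SUFU, which restrains GLI proteins, by 1.04 ± 0.10, and the coreceptor gene GAS1 by 0.67 ± 0.12, while SCUBE2, which aids ligand release, fell by 1.42 ± 0.26 (log2, SE). The edgeR adjusted p-values were 3.38e-07, 3.92e-07, 0.00024 and 0.000196. The list's median was 0.14.

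Of 14 tested NuRD subunits, the corepressor that SALL proteins bind, 7 fell and 2 rose, with a median log2 fold change of -0.15. CHD3 fell by 0.66 ± 0.06, CDK2AP1 by 0.60 ± 0.08 and MTA1 by 0.42 ± 0.07, whereas MBD3 rose by 0.30 ± 0.06 (log2, SE; edgeR adjusted p 3.37e-07, 1.06e-05, 5.33e-05 and 0.000248). The count that rose was 1 with DESeq2, with no low-count filter, without UNC1999 replicate 3 and without each UNC2400 library in turn, and 3 with upper-quartile scaling.

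The CRL4-CRBN ubiquitin ligase degrades SALL4 in the presence of thalidomide analogs. Of its 5 subunits, DDB1 fell by 0.76 ± 0.07, CUL4A by 0.39 ± 0.06 and CUL4B by 0.27 ± 0.05 (log2, SE; edgeR adjusted p 1.03e-07, 2.80e-05 and 0.000201). CRBN itself had 0.14 ± 0.06 (adjusted p = 0.0727) and RBX1 0.21 ± 0.21 (adjusted p = 0.416).

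Of 4 core subunits of the inhibited complex, EZH2 fell by 0.33 ± 0.05 (edgeR adjusted p = 5.46e-05) and SUZ12 by 0.14 ± 0.05 (adjusted p = 0.0291). The SUZ12 call was lost without UNC1999 replicate 3 and without UNC2400 replicate 2 or 3. EZH1 had -0.12 ± 0.08 and EED 0.13 ± 0.07, which passed as higher without UNC1999 replicate 1 (0.18).

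Of 15 tested pluripotency genes, 9 fell and 1 rose, with a median log2 fold change of -0.23. TERF1 fell by 0.94 ± 0.08, DNMT3B by 1.06 ± 0.09, FOXD3 by 0.92 ± 0.11 and UTF1 by 0.42 ± 0.06 (log2, SE; edgeR adjusted p 4.55e-08, 6.88e-08, 3.00e-06 and 1.58e-05). Primed markers went both ways (9 of 18 tested rose and 6 fell, median 0.11), as did naive markers (6 of 15 tested rose and 6 fell, median -0.08). Among the primed markers, CRABP2 rose by 1.86 ± 0.10 and NEFL by 1.39 ± 0.06, and PTPRZ1 fell by 1.16 ± 0.09 (edgeR adjusted p 1.46e-09, 1.01e-10 and 4.90e-08). VIM also rose (edgeR adjusted p = 2.59e-08), with 146 ± 18.9 CPM in UNC1999 and 73.2 ± 3.80 CPM in UNC2400 (SD, n = 3 each). Among the naive markers, DNMT3L rose by 1.73 ± 0.12, ALPPL2 by 1.44 ± 0.18 and KLF4 by 0.62 ± 0.06, and NLRP7 fell by 0.80 ± 0.06 (edgeR adjusted p 8.89e-09, 5.42e-06, 1.66e-07 and 4.90e-08).

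Among the listed markers of the neural tissues in which ZIC and SALL genes act, more rose than fell in UNC1999. The lists were chosen with earlier results of these data known, so this is a description. In a bulk sample, fewer cells of a type and less RNA per cell cannot be told apart. Of 9 tested neural plate border and crest genes, 6 rose and the other 3 did not pass, with a median log2 fold change of 1.01; 5 of the 18 listed reached 1 CPM in UNC2400, so a low gene passes the filter more easily where UNC1999 is higher. TWIST1 rose by 4.25 ± 0.23, MSX2 by 2.41 ± 0.32, SOX9 by 1.08 ± 0.18 and SOX10 by 1.01 ± 0.14 (log2, SE; edgeR adjusted p 9.45e-10, 9.77e-06, 8.63e-05 and 1.46e-05). MSX2 averaged 1.29 ± 0.148 CPM in UNC1999 and 0.247 ± 0.0820 CPM in UNC2400 (SD, n = 3 each). It thus passed the low-count filter through UNC1999. The summed level of the listed genes was 177 to 186 CPM in UNC1999 and 134 to 141 CPM in UNC2400.

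Of 12 tested genes of the anterior neuroectoderm, 6 rose and 1 fell, with a median log2 fold change of 0.46. With a filter of 1 CPM in 3 libraries, 5 rose and none fell. Of the 20 listed, 8 reached 1 CPM in UNC2400, so the filter limit given for the crest list applies here too. SOX21 rose by 1.37 ± 0.05, NES by 0.89 ± 0.05, OTX2 by 0.96 ± 0.07 and POU3F1 by 0.71 ± 0.10 (log2, SE; edgeR adjusted p 3.41e-11, 3.51e-09, 3.19e-08 and 1.04e-05). The summed level was 596 to 638 CPM in UNC1999 and 317 to 336 CPM in UNC2400. Most of this sum was NES, with 430 ± 19.6 CPM in UNC1999 and 232 ± 7.49 CPM in UNC2400 (SD, n = 3 each). The part of these cells or genes in the higher ZIC2, ZIC5 and SALL1 levels was not tested.

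Among 7 tested genes of kidney progenitors, where SALL1 acts, 3 rose and 1 fell (median log2 fold change 0.36). SIX4 rose by 0.36 ± 0.06 and SIX2 by 1.83 ± 0.44 (log2, SE; edgeR adjusted p 4.47e-05 and 0.00206). SIX2 averaged 0.434 ± 0.0427 CPM in UNC1999 and 0.122 ± 0.0233 CPM in UNC2400 (SD, n = 3 each), so it passed the low-count filter through UNC1999, and it was not tested with a filter of 1 CPM in 3 libraries. CITED1 rose by 0.53 ± 0.17 (adjusted p = 0.0145), a call lost without UNC1999 replicate 3 and without UNC2400 replicate 3, and RET fell by 0.27 ± 0.09 (adjusted p = 0.0161), a call lost without UNC1999 replicate 2 and without UNC2400 replicate 1 or 3. Among limb and heart genes linked with SALL4, GATA4 rose by 1.37 ± 0.36 (adjusted p = 0.0040) while FGF8 fell by 0.25 ± 0.10 (adjusted p = 0.0434). GATA4 averaged 0.754 ± 0.242 CPM in UNC1999 and 0.291 ± 0.0252 CPM in UNC2400 (SD, n = 3 each), also passed the filter through UNC1999, and was not tested with that of 1 CPM. The FGF8 call was lost with DESeq2 and upper-quartile scaling, without UNC1999 replicate 2 or 3 and without UNC2400 replicate 1 or 2. TBX3 (1.07 ± 0.46), MEIS2 (0.77 ± 0.37) and MEIS1 (0.21 ± 0.40) did not pass, although TBX3 passed as higher without UNC1999 replicate 3 and without UNC2400 replicate 1. TBX3 was low, with 0.424 ± 0.139 CPM in UNC1999 and 0.208 ± 0.121 CPM in UNC2400 (SD, n = 3 each). It was not tested with the filter of 1 CPM either.

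Markers of other cell types moved too. Of 13 tested fibroblast or feeder markers, 9 fell and 3 rose. Those with the smallest p were FN1 (-1.37 ± 0.08), COL6A2 (-1.16 ± 0.07), COL6A1 (-1.01 ± 0.08) and COL1A1 (-0.76 ± 0.07). Their edgeR adjusted p-values were 3.81e-09, 6.26e-09, 3.09e-08 and 2.07e-07. The largest log2 change on the list was the rise of PDGFRB (1.42), and TAGLN (0.88) and S100A4 (0.67) also rose. The count that rose was 1 without UNC2400 replicate 1. PDGFRA on this list is also a mesoderm marker here, and THY1 a primed marker. Their summed level was 492 to 537 CPM in UNC1999 and 906 to 1045 CPM in UNC2400. Of 5 tested endoderm markers, 3 rose and 1 fell, with a summed level of 40.1 to 76.7 CPM in UNC1999 and 7.43 to 9.20 CPM in UNC2400. CER1 rose by 3.97 ± 0.21 (edgeR adjusted p = 6.35e-10) and averaged 54.7 ± 17.9 CPM in UNC1999 and 3.48 ± 0.299 CPM in UNC2400 (SD, n = 3 each). CXCR4 rose by 1.04 ± 0.21 and AFP fell by 1.34 ± 0.26 (edgeR adjusted p 0.000538 and 0.000411). The third that rose was GATA4, at the low levels given above, and FOXA2 (0.37 ± 0.36) did not pass. TTR had 0 counts in all 6 libraries. Of 5 tested mesoderm markers, PDGFRA (-0.65 ± 0.07) and KDR (-0.42 ± 0.06) fell, MIXL1 rose by 0.31 ± 0.13 (adjusted p = 0.0477), and T (0.27 ± 0.43) and TBX6 (-0.48 ± 0.20) did not pass. TBX6 passed as lower with RLE scaling and with a filter of 1 CPM in 3 libraries. The MIXL1 call was lost with DESeq2, limma-voom and RLE scaling, without UNC1999 replicate 2 or 3 and without UNC2400 replicate 1 or 2. The 3 tested trophoblast markers, GATA2, KRT7 and ENPEP, did not pass, although ENPEP passed as lower without UNC1999 replicate 2. The summed level of that list was 3.60 to 4.66 CPM in UNC1999 and 4.14 to 5.05 CPM in UNC2400, with CGB5, VGLL1 and XAGE2 at 0 counts in all 6 libraries. For mesoderm it was 103 to 116 CPM in UNC1999 and 139 to 151 CPM in UNC2400. The part of these cell types in the ZIC and SALL differences was not tested.

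**Figure D4:**
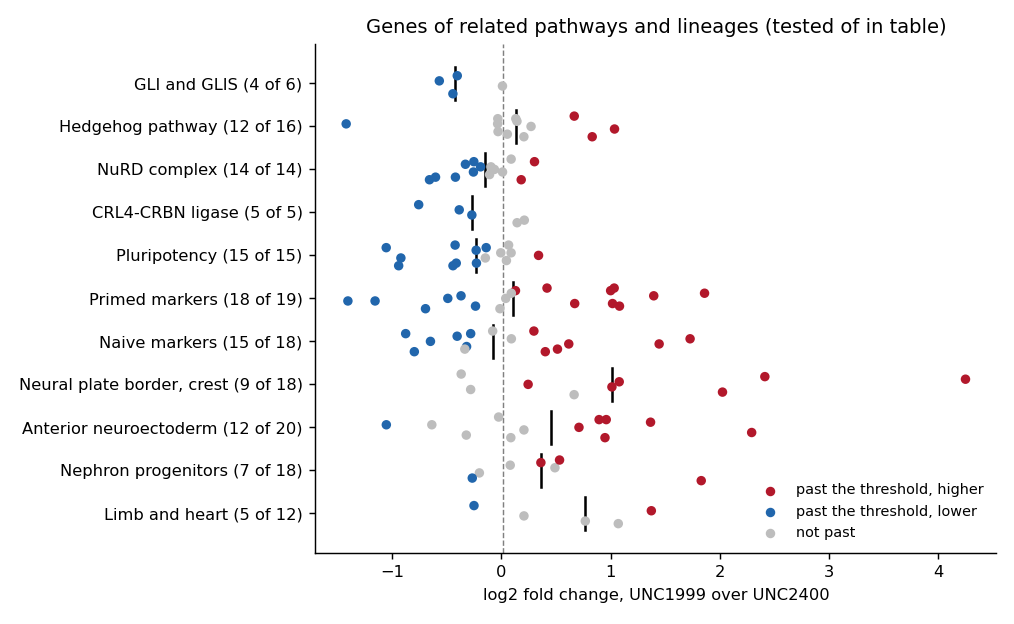
Log2 fold change (UNC1999 over UNC2400) of the tested genes of the pathway, pluripotency and tissue lists, 1 point a gene (red past the threshold as higher, blue as lower, grey not past), with the list's median as a bar and that of all tested genes (0.02) as a dashed line. The medians of the tested neural crest (1.01) and anterior neuroectoderm (0.46) genes lie above 0, and that of the GLI and GLIS genes (-0.43) below. Only 9 of 18 listed crest genes and 12 of 20 anterior genes were tested, and low genes such as MSX2 passed the filter through UNC1999.

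The genes beside the ZIC and SALL loci went both ways. Of 24 protein-coding neighbours, 18 were tested, of which 3 rose and 8 fell, beside 26.8% of all tested genes higher and 25.9% lower. The median log2 fold change of the tested neighbours was -0.20. Without UNC1999 replicate 2, 5 rose. Next to ZIC2 and ZIC5, CLYBL fell by 1.04 ± 0.14, PCCA by 0.89 ± 0.08 and TM9SF2 by 0.32 ± 0.05 (log2, SE; edgeR adjusted p 7.59e-06, 1.31e-07 and 8.63e-05), and GGACT had 0.51 ± 0.24 (adjusted p = 0.0841), which passed as higher without UNC1999 replicate 2. Next to SALL1, CYLD fell by 0.31 ± 0.06 and CHD9 by 0.32 ± 0.06, and TOX3 rose by 0.26 ± 0.06.

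Next to SALL4, ATP9A fell by 0.83 ± 0.10 and ZFP64 rose by 0.31 ± 0.06, and next to SALL3, ATP9B fell by 0.66 ± 0.08 and NFATC1 rose by 0.31 ± 0.10 (log2, SE). The NFATC1 call was lost without UNC1999 replicate 2 or 3 and without UNC2400 replicate 1 or 2. PLSCR1, near ZIC1 and ZIC4, fell by 0.37 ± 0.06. Beside SALL2, TOX4 had 0.10 ± 0.05 and METTL3 -0.10 ± 0.06; TOX4 passed as higher without UNC1999 replicate 2 and with upper-quartile scaling.

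**Figure D5:**
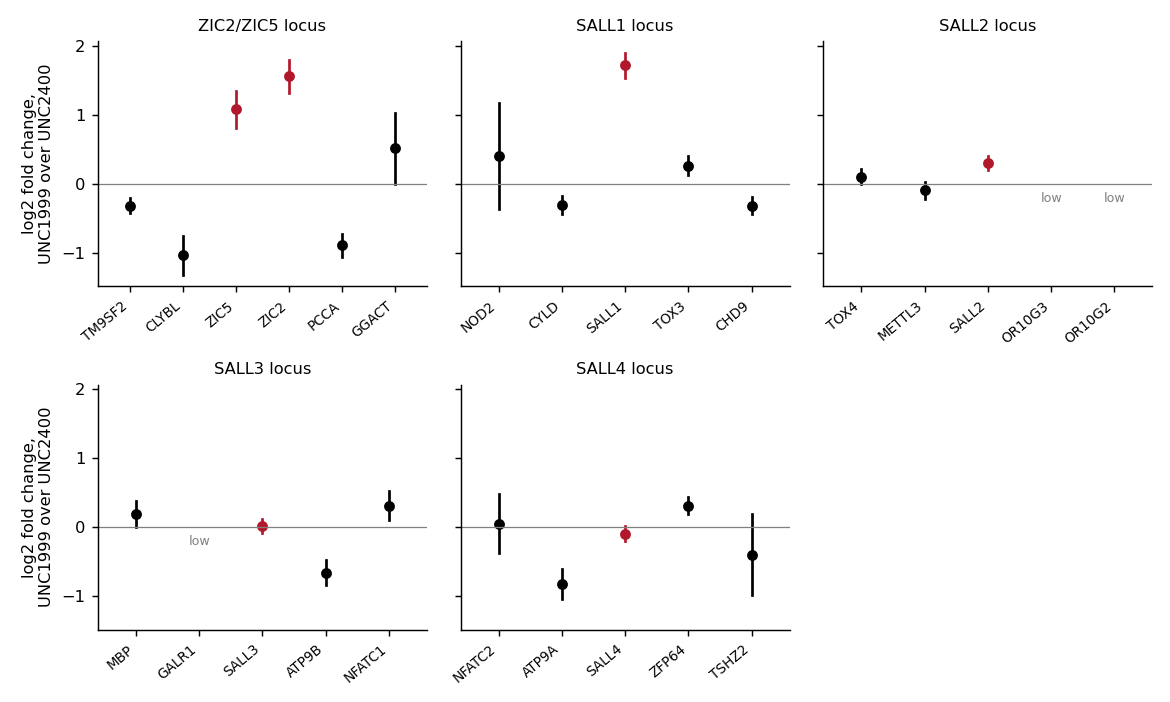
Log2 fold change (UNC1999 over UNC2400, 95% interval) of the ZIC and SALL genes (red) and their nearest protein-coding neighbours (black), by locus in RefSeq order and not to scale, without the ZIC1 and ZIC4 locus; "low" marks genes under the low-count filter. The points of ZIC2, ZIC5 and SALL1 lie above those of the neighbours beside them, of which CLYBL fell by 1.04.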

How the data were processed

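Poly(A)-selected RNA of 6 libraries was counted per gene name, and the deposited counts are whole numbers without normalization, per the file headers. The submitters' processing notes name the build hg19, featureCounts, Subread 1.5.0, TopHat2 2.0.13 and Trim Galore 0.4.0, without saying what each did. Which annotation, strand setting and rule for multi-mapped reads were used is not given in the sources used here. A table of log2 values that the authors deposited is marked as normalized and batch-corrected. Another of the authors' deposited tables gives a log2 fold change, a p-value and a test score per gene, and only its fold changes were used. The 26 gene names that a spreadsheet had turned into dates stayed in the tests.

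Counts were tested by the two-sided quasi-likelihood F test of edgeR 4.0.16 (R 4.3.3), with TMM scaling and edgeR's default low-count filter, which kept 17596 genes. P-values were adjusted by the Benjamini-Hochberg method over all tested genes, with a threshold of 0.05. SE is the log2 fold change divided by the square root of F. Log2 fold changes are UNC1999 minus UNC2400, levels are TMM-scaled CPM, and ratios of low genes use exact 95% counting intervals. The procedure was tested on simulated data. As alternatives, DESeq2 1.42.0, limma-voom (limma 3.58.1), scaling by RLE or upper quartiles, other filters, the replicate number as a block, and leaving out each library were run. A sample's group and replicate came from its title.

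The genes and the 16 gene lists were chosen with earlier results of these data known. The text names the 8 genes and same-family pseudogenes and antisense genes. Also named are up to 4 tested genes of each list with the smallest p, and every gene of lists with at most 5 tested. Neighbours past the threshold are named as well. Other neighbours and the fibroblast markers that rose are named after their values were seen. Library totals were compared by an exact two-sided permutation test (p = 1, where 0.1 is the smallest possible). The largest correlation between same-numbered libraries' deviations was 0.124 and the smallest 0.0237, so the numbers were not taken to pair the samples. A result that the naming rule takes is not reported here.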

Additional observations from a re-analysis of the deposited data

How the results depend on the processing

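Over 13 alternatives, the genes past the threshold as higher in UNC1999 numbered 3642 to 4925 when 1 library was left out and 4057 to 4926 otherwise, and those lower 3951 to 5151 and 4288 to 4695. Of the 8 genes, 4 were higher in every alternative, which is a description and no test. The count lower was 0 to 1 when 1 library was left out, the 1 being SALL4 without UNC1999 replicate 1. Signs changed for 6 of the genes named, none of them past the threshold: SALL3 (-0.0025 with no low-count filter, -0.0215 to 0.0201 when a library was left out), GLIS2 (-0.0024 with RLE factors, -0.0028 with DESeq2, -0.0081 with no filter, -0.0492 to 0.0693), MEIS1 (-0.0267 to 0.37), KRT7 (-0.21 to 0.062), T (-0.25 to 0.53) and NFATC2 (-0.10 to 0.10). The neighbouring genes that rose numbered 2 to 5 when a library was left out. The cause was not tested. The difference in library totals, UNC1999 minus UNC2400, was -317903 counts, and -2581302 to 3741701 when a library was left out. It was positive without UNC2400 replicate 2 (exact permutation p = 0.2, the smallest possible with 1 library left out). ZIC1 and ZIC4 are limited by depth.

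With the replicate number as a block, 4867 genes were higher and 4695 lower, and 4 of the 8 genes were higher. TBX3 (1.07), at the low levels given above, then passed as higher and TBX6 (-0.49) as lower. The numbers are not shown to pair the samples, although a pairing is not excluded. Same-numbered libraries' deviations correlated at 0.0237, 0.0839 and 0.124. UNC2400 replicate 1 correlated best with UNC1999 replicate 2 (0.0618), whereas each other library correlated best with its own number.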

Other observations

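The genes whose pattern over the 6 libraries was closest to that of each ZIC or SALL gene were ranked by the root mean square difference of centred log2 CPM among 12641 genes, as a description. For ZIC2 the closest was SOCS2, a suppressor of cytokine signalling, at 0.113, followed by FOXI3 at 0.142 and HLA-DMB at 0.143. For SALL1 it was HLA-DMB, which encodes a chaperone of antigen loading, at 0.0659, followed by LAMP5 and PHLDA1 at 0.119 and 0.137. For ZIC5 it was FBXL2 at 0.0599, followed by the planar polarity gene PRICKLE1 at 0.0934 and ZSCAN20 at 0.0986. The group difference weighs in each of these differences, since it is part of the pattern. For the genes with small differences between groups, the closest were DPH5 for SALL2 (0.0144), TCN2 for SALL3 (0.00921) and CLPTM1 for SALL4 (0.00798).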
